A study of Mus musculus with 12 samples.

Results

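The genes described here are the nuclear genes of the oxidative phosphorylation system, taken from the expression table as every gene whose name begins with Nduf, Uqcr, Cox4 to Cox8 or Atp5, with the 4 names that contain -ps (pseudogenes) left out. The rule found 88 of 34745 genes: 43 assigned to complex I, 8 to complex III, 20 to complex IV and 17 to complex V. Ndufa4 and Ndufa4l2 were counted under complex IV despite their names. Atp5sl, called Dmac2 in the GENCODE M21 annotation, was counted under complex V by its older name alone. No measured value entered the rule. Of the 88, 82 passed the filter on low counts over all 12 libraries, and the 6 that did not are Cox4i2, Cox7a1, Cox7b2, Cox8b, Cox8c and Ndufa4l2.

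RNA of total bone marrow cells from the femur of ICR mice, an outbred strain, was sequenced in 4 groups with 3 libraries each, from male mice by the study's methods. The normal group received saline. Cyclophosphamide, an alkylating drug toxic to proliferating cells, was given to all the others on days 5 to 7 at a daily 80 mg/kg. Model mice had saline beside it, QJSB mice had the QJSB granule at a daily 3 g/kg, and leucogen mice had leucogen, a drug used against leucopenia, at a daily 20 mg/kg, over 1 week. No group received a drug without cyclophosphamide, so an effect of either drug alone cannot be told apart from its effect in treated marrow. The comparison of model with normal asks what cyclophosphamide left changed in the marrow, and the comparisons with model ask what each drug added.

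Oxidative phosphorylation makes ATP in the inner mitochondrial membrane. Complex I takes electrons from NADH and passes them to ubiquinone, complex III passes them on to cytochrome c, and complex IV (cytochrome c oxidase) passes them to oxygen. All of these pump protons across the membrane, and complex V (ATP synthase) lets the protons flow back through a rotor that drives ATP formation in its F1 head. Most subunits are encoded in the nucleus and are imported, while a small set in the catalytic cores is encoded by mitochondrial DNA. In bone marrow, dividing precursors are rich in mitochondria, and mature neutrophils have few and depend mostly on glycolysis.

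Library totals ran from 11172547 to 18545198 counts. These are bulk samples, so fewer cells of a type and less RNA per cell cannot be told apart, and the p-values measure only the spread between the libraries of a group. Lists of cell type markers moved strongly between the groups. Against normal, the model group was lower in 10 of 10 erythroid genes (median log2 fold change -5.49) and 9 of 10 B cell genes (median -4.93), and higher in 5 of 6 promyelocyte genes (median 3.16). Summed CPM (counts scaled to a common library size) of the 10 late neutrophil genes ran from 12989 to 13591 in normal, from 5328 to 11994 in model, from 5520 to 25356 in QJSB and from 20375 to 27908 in leucogen. The 10 proliferation genes were lower in model in 7 cases and higher in 0 (median -0.58), and the 4 monocyte genes were all higher (median 1.16). Library QJSB 1 stood apart from the other QJSB libraries on the late neutrophil list, with 5520 against 25060 and 25356. It was also high for 7 genes of stroma and endothelium, with a summed CPM of 644 against 196 and 208. Model 1 stood apart from the other model libraries on the same lists, with 5328 against 11994 and 9159 for late neutrophils and 567 against 235 and 215 for stroma and endothelium, and without it 23 members were called in model against normal and 27 in leucogen against model. In leucogen against model, 6 of the 10 late neutrophil genes were higher (median 1.76) and 4 of 6 promyelocyte genes were lower (median -0.83), with 2 of 10 proliferation genes and 2 of 4 monocyte genes lower. Of the 10 B cell markers, Vpreb3 had no count in any QJSB or leucogen library, and no other listed marker was at 0 in a whole group. The part of these cell types in the results below was not tested.

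The promoters of the members were read from RefSeq (build GRCm38.p6), which gave a window of 300 bases, 250 before to 50 after the start, for 73 of the 88 members (3 through a newer symbol). The windows of 4 are printed in part, since they belong to members of complexes I, III, IV and V that carry the fold changes described below, and they were chosen after the values were known. Each line gives the 250 bases before the start. Capitals mark the NRF1 core, a pair of GCGC blocks around any base and a T, or its reverse complement. They also mark the ETS core CCGGAA on either strand.
Ndufb6: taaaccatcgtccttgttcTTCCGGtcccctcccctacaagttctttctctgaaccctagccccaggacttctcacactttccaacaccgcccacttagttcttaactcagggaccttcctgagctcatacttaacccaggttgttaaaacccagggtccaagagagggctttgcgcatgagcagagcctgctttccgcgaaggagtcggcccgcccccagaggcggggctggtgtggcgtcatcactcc
Uqcrfs1: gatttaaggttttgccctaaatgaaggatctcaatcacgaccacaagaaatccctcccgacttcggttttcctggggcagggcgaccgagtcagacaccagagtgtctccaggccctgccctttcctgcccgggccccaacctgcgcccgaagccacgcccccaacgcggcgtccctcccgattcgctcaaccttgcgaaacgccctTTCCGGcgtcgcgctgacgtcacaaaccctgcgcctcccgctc
Cox6a1: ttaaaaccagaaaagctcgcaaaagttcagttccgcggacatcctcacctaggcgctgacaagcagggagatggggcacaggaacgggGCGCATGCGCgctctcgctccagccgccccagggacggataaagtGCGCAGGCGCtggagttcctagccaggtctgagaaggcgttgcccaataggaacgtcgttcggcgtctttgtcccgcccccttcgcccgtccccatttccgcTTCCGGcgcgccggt
Atp5b: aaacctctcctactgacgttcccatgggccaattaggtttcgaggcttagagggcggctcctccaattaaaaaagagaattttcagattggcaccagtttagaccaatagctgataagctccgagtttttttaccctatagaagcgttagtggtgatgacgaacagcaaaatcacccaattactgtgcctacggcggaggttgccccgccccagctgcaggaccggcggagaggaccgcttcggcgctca
The Ndufb6 sequence lies at chr4:40279422-40279671 (minus strand), the Uqcrfs1 sequence at chr13:30545317-30545566 (minus), the Cox6a1 sequence at chr5:115348959-115349208 (minus) and the Atp5b sequence at chr10:128083057-128083306 (plus). Cox6a1 held 2 NRF1 cores and 1 ETS core before its start, Ndufb6 and Uqcrfs1 held 1 ETS core each, and Atp5b held neither.

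Over whole windows and both strands, the NRF1 core was in 17 of 73 members (23.3%) and in 5.19% of the 27025 genes with a window. The ETS core was in 25 members (34.2%) and in 16.7% of all genes. The YY1 core ATGGCGGC was in 7 members (9.59%) and in 2.60% of all genes. The Sp1 core GGGCGGG, in 25 members (34.2%) and 27.9% of all genes, and the CCAAT box, in 32 members (43.8%) and 41.1% of all genes, were nearer to the share of all genes. Matches of different motifs overlapped in 1 member, Ndufv3. A match is a description of letters and not a site. The 27025 genes were not limited to those expressed in these libraries, as most members are. The shares are thus not matched for expression. In leucogen against model, 9 of the 17 tested members with the NRF1 core and 22 of the 52 without it were lower by the test used below, with median log2 fold changes of -0.63 and -0.56. With the ETS core 16 of 25 were lower (median -0.85), and without it 15 of 44 (median -0.48). With the Sp1 core 7 of 24 were lower (median -0.40), and without it 24 of 45 (median -0.63). With the YY1 core 5 of 7 were lower (median -0.66), and without it 26 of 62 (median -0.58). For the CCAAT box these were 12 of 29 (median -0.57) and 19 of 40 (median -0.60). In model against normal the medians with and without the NRF1 core were 0.49 and 0.31. For the ETS core they were 0.36 and 0.35, and for the YY1 core 0.36 and 0.35. For the Sp1 core they were 0.29 and 0.39, and for the CCAAT box 0.27 and 0.41. Of all genes tested, 13.3% were lower in leucogen against model. None of these splits was tested.

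Levels are compared between genes in FPKM, which is per length of the transcript. Complex IV held the highest level, Cox6b1, a small subunit that links the monomers of the oxidase, at a mean of 155 FPKM over 12 libraries. Cox8a, another small subunit, followed at 114 FPKM. In complex V the highest level was that of Atp5a1, the alpha subunit of the F1 head, at 71.9 FPKM, followed by Atp5b, its catalytic beta subunit, at 65.3. Uqcrb, a subunit near the quinone site, led complex III at 63.6 FPKM, and Ndufb9, an accessory subunit of the membrane arm, led complex I at 53.5. The medians over the members were 5.69 FPKM in complex I, 18.7 in complex III, 9.98 in complex IV and 9.98 in complex V. These levels rest on the lengths the authors used, which the files imply to be 6918 bases for Atp5b and 511 for Atp5l, where the exons of the GENCODE M21 annotation cover 4237 and 6443 bases.

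As a whole the members took up more of the transcriptome in model and QJSB than in normal. They took up less in leucogen, whose mice also had cyclophosphamide. Their share of all counts was 0.307% ± 0.0093 (SD, n = 3) in normal, 0.454% ± 0.0025 in model, 0.418% ± 0.0744 in QJSB and 0.263% ± 0.0091 in leucogen. The shares of model and of QJSB lay above every normal library and that of leucogen lay below, while QJSB was spread from 0.360% (QJSB 3) to 0.502% (QJSB 1) and overlapped model. Atp5a1 and Atp5b together made up 15.4% of the member counts in leucogen and 27.1% in QJSB. Without them the shares were 0.243% in normal, 0.342% in model, 0.303% in QJSB and 0.223% in leucogen, in the same order.

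**Figure D1:**
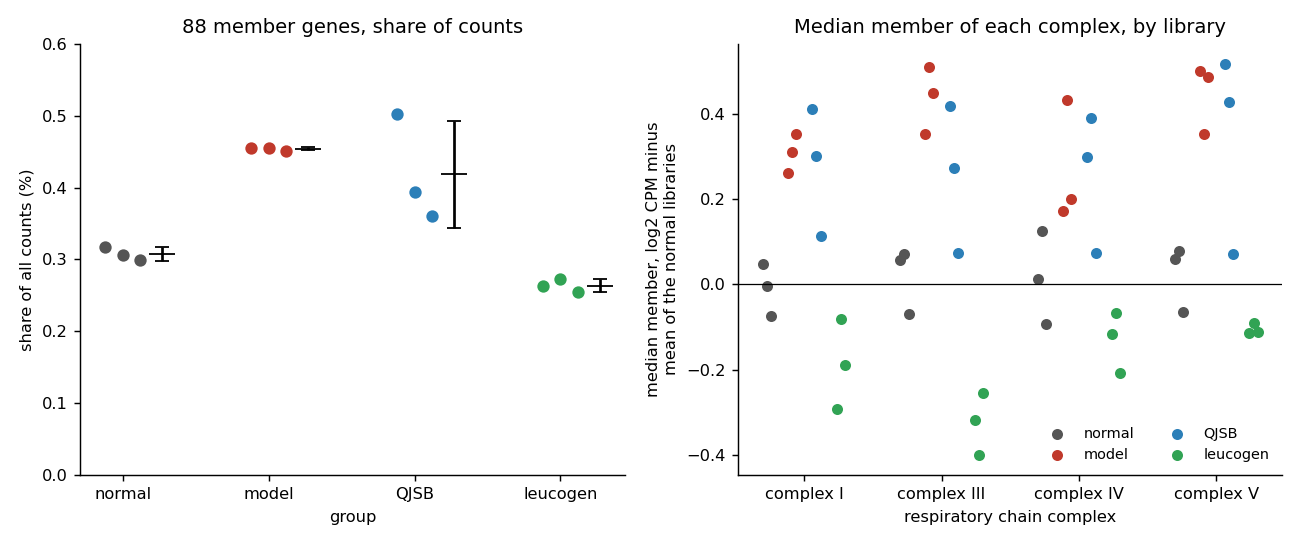
Left, share of all counts (%) taken by the 88 members in each library, with the mean ± SD of each group (n = 3) beside the points. Right, for each complex and library, the median member as log2 CPM minus the mean of the normal libraries. Model libraries sit between 0.451% and 0.456% at left and leucogen libraries between 0.254% and 0.272%. At right every model library is above 0 and every leucogen library below 0 in all complexes.

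Summed FPKM moved alike in the complexes. The 43 complex I genes summed to 440 ± 17.0 FPKM in normal, 611 ± 38.3 in model, 547 ± 56.8 in QJSB and 398 ± 10.5 in leucogen (SD, n = 3). The 17 complex V genes summed to 266 ± 12.1, 394 ± 18.4, 377 ± 82.4 and 211 ± 5.35 FPKM in the same order. Model libraries lay above all normal libraries, and leucogen libraries below all model libraries, in both sums.

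Against normal, the model group was higher in 25 and lower in 0 of the 81 members tested (30.9% higher, edgeR, adjusted p under 0.05), where 19.7% of all 14752 genes were higher and 21.9% lower. The median member was higher by 0.37 on the log2 scale, against 0.02 for all genes. Scaled to total counts alone, which moved the median of all genes to 0.14, 36 members were higher and 0 lower, against 25.2% and 18.3% of all genes. By complex, 11 of 42 tested genes of complex I rose, 4 of 8 of complex III, 2 of 14 of complex IV and 8 of 17 of complex V. The number of calls fell to 15, 11 and 16 without normal 1, 2 and 3. Counts with a library left out, or under another setting, stand without the share of all genes except where it is given. They are not read as particular to these genes.

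The largest rise was that of Ndufv3, an accessory subunit beside the NADH-binding site of complex I. It was measured at 6.67, 5.28 and 6.97 CPM in the normal libraries, at 17.6, 22.9 and 30.1 in model, at 27.3, 45.4 and 27.1 in QJSB and at 9.14, 20.4 and 10.8 in leucogen. Every library of the groups given cyclophosphamide was above every normal library, and model and QJSB overlapped. The log2 fold change was 1.90 ± 0.24 (SE, adjusted p = 0.00043) in model and 2.41 ± 0.25 (adjusted p = 0.00027) in QJSB against normal. It was 1.11 ± 0.29 (adjusted p = 0.012) in leucogen against normal, so Ndufv3 is one of the few members that stayed above normal with leucogen.

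In complex III the rise was led by Uqcrq, a small subunit that binds ubiquinone, and Uqcrc1, a core subunit. Uqcrc1 was at 91.5, 78.9 and 93.7 CPM in normal, 176, 134 and 202 in model, 212, 186 and 159 in QJSB and 78.7, 104 and 73.8 in leucogen. The lowest model library was above the highest normal and the highest leucogen library, and normal and leucogen overlapped. The log2 fold change in model against normal was 0.96 ± 0.17 (adjusted p = 0.0024) for Uqcrc1 and 1.01 ± 0.20 (adjusted p = 0.0044) for Uqcrq. Uqcrq was at 11.9, 9.81 and 11.9 CPM in normal, 18.6, 20.7 and 28.1 in model, 22.6, 25.4 and 16.5 in QJSB and 9.06, 8.27 and 7.3 in leucogen. For Uqcrq too, normal and leucogen lay below model and QJSB with no overlap. Uqcrfs1, the Rieske iron-sulfur protein, was higher by 0.40 ± 0.12 (adjusted p = 0.029).

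In complex I 26.2% of the tested genes were called higher and in complex IV 14.3%, where the share of all genes was 19.7%, so the count in complex IV was below that of all genes. Of the 7 core subunits of complex I, which carry the flavin and the iron-sulfur clusters, 2 rose in model, among them Ndufv1 by 0.68 ± 0.19 (adjusted p = 0.023) on the log2 scale, and Ndufs1, the largest core subunit, was at -0.01 ± 0.14. Among the accessory subunits 8 of 29 rose, with Ndufb6 at 0.79 ± 0.18 (adjusted p = 0.0096) and Ndufa8 at 0.72 ± 0.20 (adjusted p = 0.022). The Ndufa8 call was lost without normal 1, normal 2 or model 3. In complex IV the 2 subunits that rose were Cox5a (0.87 ± 0.16, adjusted p = 0.0026) and Cox5b (0.65 ± 0.21, adjusted p = 0.039), both nuclear subunits on the matrix side. With the relation of each library to GC content removed, Cox5b was at 0.49 ± 0.19 and no longer called, Cox7b was called higher (0.58 ± 0.14) and Cox6b2 lower (-0.68 ± 0.21), and over all complexes 25 members were higher and 1 lower. The most abundant member, Cox6b1, was at 0.33 ± 0.14 (adjusted p = 0.085).

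In complex V the F1 head held the most abundant transcripts by counts. Atp5b was at 377, 344 and 361 CPM in normal, 540, 461 and 730 in model, 745, 584 and 522 in QJSB and 208, 270 and 207 in leucogen. The 4 groups fell into 3 levels that did not overlap: leucogen lowest, normal next, and model with QJSB highest. In model against normal 4 of the 5 F1 genes rose: Atp5b by 0.68 ± 0.17 (adjusted p = 0.014), Atp5a1 by 0.66 ± 0.14 (adjusted p = 0.0068), Atp5c1, the gamma shaft, by 0.56 ± 0.12 (adjusted p = 0.0071) and Atp5d, the delta subunit, by 0.56 ± 0.16 (adjusted p = 0.026) on the log2 scale. Atp5a1 followed Atp5b, at 332, 253 and 317 CPM in normal, 460, 437 and 520 in model, 671, 477 and 421 in QJSB and 189, 210 and 193 in leucogen. Its levels fell in the same 3 groups without overlap. Atp5d was at 48.3, 41.2 and 42.6 CPM in normal, 65, 51.9 and 76.7 in model, 82.5, 76.1 and 67.8 in QJSB and 26.5, 32.7 and 26.5 in leucogen. Again leucogen was lowest in every library. Atp5c1 was at 82.5, 92.4 and 80.9 CPM in normal, 121, 137 and 119 in model, 127, 123 and 89.4 in QJSB and 76.8, 92.6 and 82.6 in leucogen. Here normal and leucogen overlapped, and QJSB 3 lay among them. Atp5e, the epsilon subunit, was at 0.10 ± 0.21. The Atp5d call was lost without any 1 of the normal libraries or model 3, and the Atp5b call without normal 2.

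**Figure D2:**
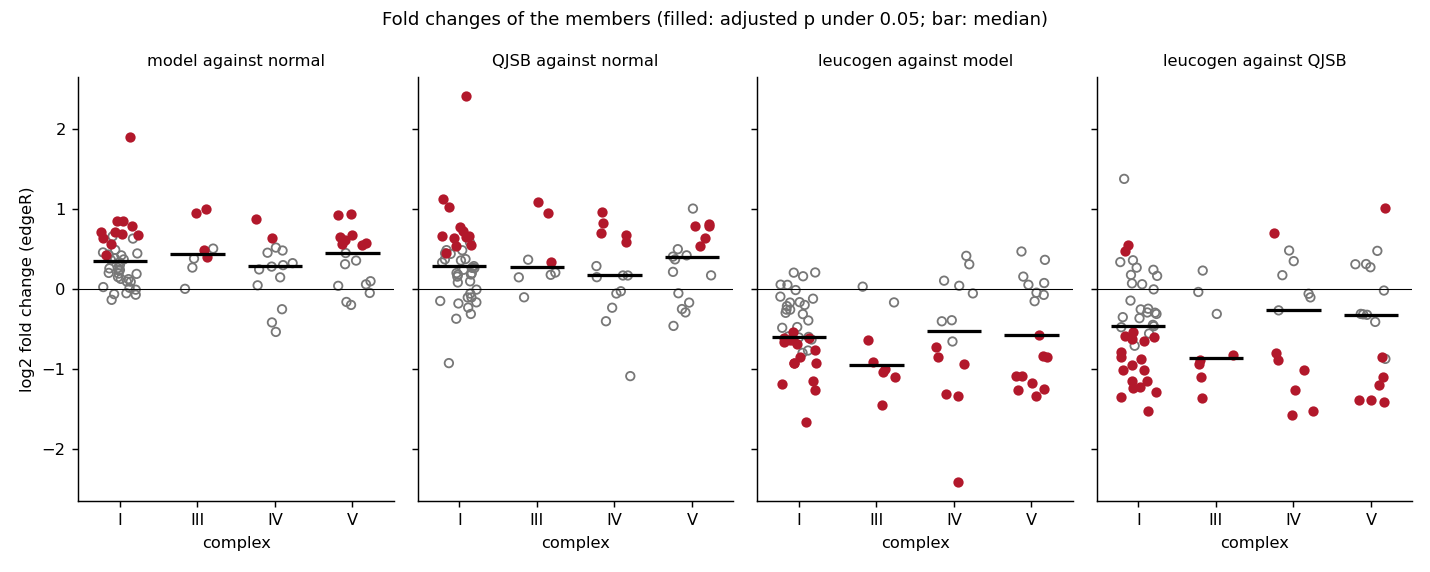
Log2 fold change of each tested member by complex in 4 comparisons. Filled points have an adjusted p under 0.05, open points do not, and bars are the medians. Filled points lie above 0 in both comparisons with normal shown and, in leucogen against model, all 37 lie below 0. In leucogen against QJSB 35 lie below 0 and 4 above.

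Against model, the leucogen group was lower in 37 and higher in 0 of 81 members (45.7% lower), where 13.3% of all 14184 genes were lower and 13.8% higher. The median member was lower, at -0.60 on the log2 scale, against -0.05 for all genes. Scaled to total counts alone, which moved the median of all genes to -0.22, 47 members were lower and 0 higher, against 21.9% and 9.83% of all genes. Lower members were 16 of 42 in complex I, 6 of 8 in complex III, 6 of 14 in complex IV and 9 of 17 in complex V. The 9 in complex V include Atp5sl (Dmac2), counted there by its older name alone. The count fell to 20 without leucogen 1 and to 20 without leucogen 3. It was 30 when the relation of each library to the GC content of genes was removed, with 25 of the 37 among them. The share of all genes called under these settings is not set beside these counts.

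The largest fall among members with a mean of at least 50 normalized counts was that of Ndufb6, an accessory subunit of the membrane arm of complex I. It was at 10.1, 9.72 and 11.3 CPM in model, 2.86, 3.63 and 3.26 in leucogen, 9.88, 10.5 and 7.98 in QJSB and 6.45, 6.18 and 5.45 in normal. Every leucogen library was below every other library, and the log2 fold change against model was -1.67 ± 0.22 (adjusted p = 0.0026). Its exons share 257 bases with Smim27 on the other strand, and whether the counting used strand is not given in the sources used here. Among the core subunits 5 of 7 fell, and of these Ndufv1 was at -1.15 ± 0.22, Ndufs7 at -0.84 ± 0.24, Ndufs8 at -0.76 ± 0.16 and Ndufs3 at -0.53 ± 0.16. The Ndufs7 and Ndufs3 calls were lost with the GC relation removed (-0.51 ± 0.18 and -0.41 ± 0.14). None of the 6 tested assembly factors named Ndufaf was called lower (smallest adjusted p = 0.069, edgeR). All 6 lay below 0, from -0.60 to -0.12, and for 3 every leucogen library was below every model library.

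In complex III, Uqcrq was at 18.6, 20.7 and 28.1 CPM in model and 9.06, 8.27 and 7.3 in leucogen, a log2 fold change of -1.44 ± 0.21 (adjusted p = 0.0034). Uqcrc1 changed by -0.99 ± 0.19 (adjusted p = 0.0079) and Uqcrfs1 by -0.91 ± 0.14 (adjusted p = 0.0042). The 2 of 8 that did not pass were Uqcrb (0.03 ± 0.18) and Uqcrh (-0.16 ± 0.22).

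In complex IV, Cox8a was at 83.6, 47.3 and 95.1 CPM in model and 32.7, 32.9 and 23.7 in leucogen. Model 2 lay below the normal range of 52.2 to 57.7 CPM, and all leucogen libraries lay below model 2. Cox6b1 was at 76.5, 83.5 and 64.6 CPM in normal, 89, 97.8 and 93.9 in model, 93.7, 98.3 and 80.1 in QJSB and 46.1, 54.5 and 54.1 in leucogen. Leucogen libraries were again below all others. The log2 fold change of leucogen against model was -1.33 ± 0.26 (adjusted p = 0.0087) for Cox8a, -1.31 ± 0.21 (adjusted p = 0.0048) for Cox6a1, the common form of a regulatory subunit, and -0.85 ± 0.14 (adjusted p = 0.0043) for Cox6b1. Cox5a changed by -0.93 ± 0.18 (adjusted p = 0.0081). In complex V, Atp5b changed by -1.33 ± 0.20 (adjusted p = 0.0035), Atp5a1 by -1.25 ± 0.13 (adjusted p = 0.0018) and Atp5d by -1.17 ± 0.18 (adjusted p = 0.0038). Atp5o, the stalk subunit that holds the F1 head in place, changed by -1.26 ± 0.15 (adjusted p = 0.0018). The annotated Atp5o gene spans chr16:91684398-91931687 and shares exon bases with another gene of that name, so its counts are uncertain.

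**Figure D3:**
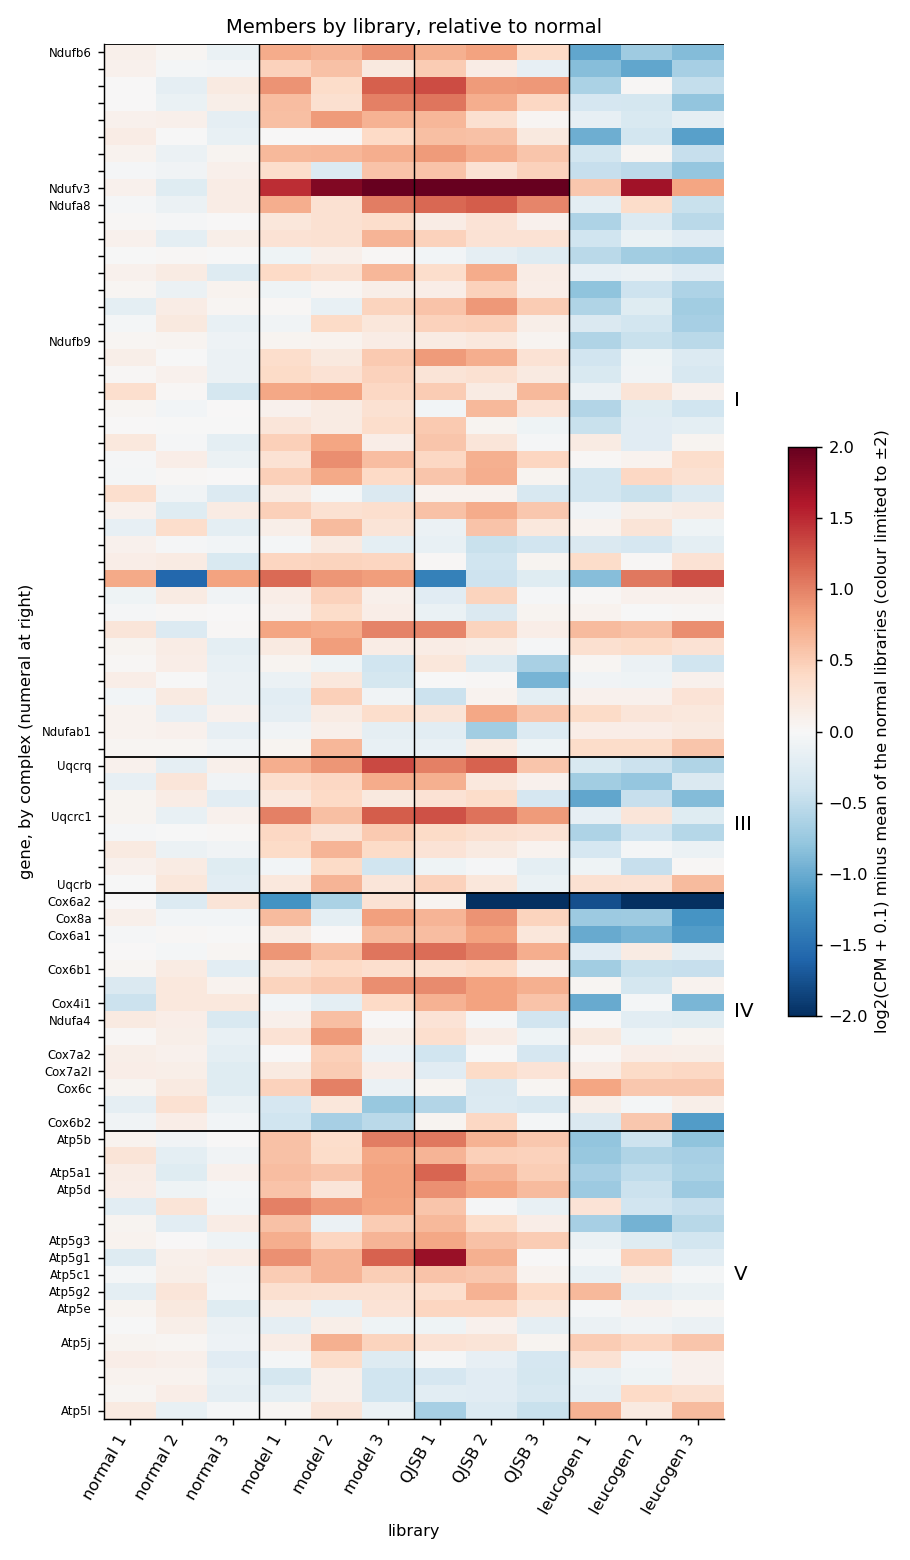
Each row is one of the 81 members tested in leucogen against model, grouped by complex and ordered within a complex by that fold change, and each column is a library. Names are given for the members whose values are described by library or isoform. Colour gives log2(CPM + 0.1) minus the mean of the normal libraries, limited to ±2. Most upper rows of each complex are red in model and QJSB and blue in leucogen, most lower rows are pale, Ndufv3 (complex I) is red in all treated groups, and Cox6a2 (top of complex IV) is blue in most treated libraries.

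Between QJSB and model no member differed: 0 of 82 passed with edgeR, where 0% of all 14486 genes did. At an unadjusted p under 0.05 there were 3 members, Ndufaf4, Cox4i1 and Cox6b2, and 4.99% of all genes. DESeq2 called 1 member, Ndufaf4, an assembly factor of complex I. Ndufaf4 was at 28.6, 24 and 23.3 CPM in model and 5.05, 9.73 and 10.9 in QJSB, but it also varied within the other groups, at 22.1, 4.32 and 22.7 in normal and 7.15, 27 and 31.9 in leucogen. The SE of these log2 differences had a median of 0.22 and ran from 0.15 to 0.77, and 73 of 82 differences were under 0.5 in size. The median was -0.10, and it ran from -0.14 to 0.0078 when 1 library was left out, with the sign turned without QJSB 3. A p that misses the threshold does not show that QJSB and model are alike.

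Against normal, the QJSB group was higher in 25 and lower in 0 of 82 members (30.5% higher), where 22.1% of all genes were higher and 23.2% lower. The median was 0.29. Among called members the largest rises after Ndufv3 were those of Ndufa8 (1.13 ± 0.14, adjusted p = 0.00066), Uqcrc1 (1.09 ± 0.14, adjusted p = 0.00074), Ndufa10 (1.03 ± 0.17, adjusted p = 0.0022) and Cox5a (0.97 ± 0.14, adjusted p = 0.0012). Cox4i1, the common form of the regulatory subunit IV, rose by 0.68 ± 0.18 (adjusted p = 0.019) on the log2 scale, from 58.4, 90.5 and 91.2 CPM in normal to 126, 138 and 117 in QJSB, and was at 75.6, 68.3 and 104 in model. With the GC relation removed, 17 members were higher and 2, Atp5h and Ndufa7, were lower. The Cox4i1, Cox6a1 and Ndufb6 calls were among those lost. The Cox4i1 call was also lost without QJSB 2 and with all 12 libraries in one fit, and those of Cox6a1 and Ndufb6 without QJSB 2 or any 1 of the normal libraries and with a replicate block. The count was 16 without normal 2 and 16 without normal 3.

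Some pairs of these comparisons share no library, so their members can be set side by side. Of the 25 members higher in model than in normal, 17 (68%) were among the 35 lower in leucogen than in QJSB (48.6% of those), where 43.8% of the 80 members tested in both were lower. Over all 13965 genes tested in both, 32.9% of the genes higher in the first were lower in the second, where 15.8% of all were. Of the 25 higher in QJSB than in normal, 18 (72%) were among the 37 lower in leucogen than in model (48.6% of those), where 45.7% of the 81 members tested in both were lower. Over all 13953 genes the shares were 27.6% and 13.5%. Members in both of the first pair included Atp5a1, Atp5b, Cox5a, Ndufb6, Uqcrc1 and Uqcrq.

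Set against each other, leucogen was lower than QJSB in 35 and higher in 4 of 81 members (43.2% lower), where 15.5% of all 14266 genes were lower and 13.8% higher. The lowest were Cox6a1 (-1.57 ± 0.20, adjusted p = 0.0029), Cox8a (-1.52 ± 0.18, adjusted p = 0.0028) and Ndufb6 (-1.52 ± 0.23, adjusted p = 0.0039). The 4 higher members were Atp5l, Cox6c, Ndufab1 and Ndufs4. Without leucogen 3 the count of calls was 25, and with the GC relation removed 22 members were lower and 1, Cox6c, was higher.

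Against normal, the leucogen group was lower in 21 and higher in 8 of 81 members. The lower share (25.9%) was close to that of all genes (26.6%), so the count alone says nothing particular of these genes, and the higher share was 9.88% against 25.7% of all genes. The lower members included 3 of the 5 F1 genes: Atp5b at -0.64 ± 0.11 (adjusted p = 0.00075), Atp5d at -0.60 ± 0.12 (adjusted p = 0.0019) and Atp5a1 at -0.59 ± 0.11 (adjusted p = 0.0013). Cox6a1 was at 16.2, 16.7 and 16.3 CPM in normal and at 8.1, 8.63 and 7.49 in leucogen, a log2 fold change of -1.0 ± 0.14 (adjusted p = 0.00018). Both groups varied little and did not overlap. By contrast Uqcrc1 (-0.02 ± 0.13), Cox5a (-0.05 ± 0.13) and Atp5c1 (-0.00 ± 0.10) lay at the level of normal.

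The highest member of complex I, Ndufb9, was low in leucogen. It was at 36.9, 37.3 and 33.5 CPM in normal, 37.2, 37.5 and 39.9 in model, 40.3, 41.6 and 37 in QJSB and 23.7, 26.3 and 24.7 in leucogen. Every leucogen library lay below every other library. The log2 fold change of leucogen was -0.51 ± 0.10 (adjusted p = 0.0024) against normal, -0.61 ± 0.14 (adjusted p = 0.013) against model and -0.65 ± 0.13 (adjusted p = 0.0086) against QJSB. The calls against model and QJSB were lost with the GC relation removed. The call against model was also lost without leucogen 1 or leucogen 3, and with the length trend removed and a replicate block. In GENCODE M21 the Ndufb9 exons share 201 bases with Gm49356 on the same strand, so its counts are uncertain. Other members overlap a gene on the other strand, among them Cox6c (Vps13b, 250 bases), Cox4i1 (Emc8, 154) and Atp5a1 (Haus1, 129).

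A further set of subunits did not fall with leucogen. Cox6c, a small subunit of complex IV, was at 135, 147 and 110 CPM in normal, 178, 263 and 120 in model, 134, 106 and 134 in QJSB and 224, 189 and 188 in leucogen. Its leucogen libraries lay above all normal and QJSB libraries and within the range of model. The log2 fold change of leucogen was 0.64 ± 0.12 (adjusted p = 0.0016) against normal and 0.70 ± 0.15 (adjusted p = 0.011) against QJSB. Uqcrb, the highest member of complex III, was at 57.7, 67.7 and 50.2 CPM in normal, 67, 92.7 and 68.8 in model, 79.8, 68.3 and 52.9 in QJSB and 71.7, 70.9 and 90 in leucogen. It was higher in leucogen than in normal by 0.43 ± 0.14 (adjusted p = 0.024), a call lost without normal 1, normal 3 or leucogen 3 and with the GC relation removed. Ndufs4, which joins the matrix arm of complex I late in its assembly, was higher by 0.45 ± 0.10 (adjusted p = 0.0040) against normal. Atp5j, a subunit of the peripheral stalk, was higher by 0.52 ± 0.10 (adjusted p = 0.0013), and its gene overlaps Gabpa on the other strand.

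Other members differed little from model or were called in a single comparison. Atp5f1, the b subunit of the stalk, was at -0.05 ± 0.13 in model against normal and -0.04 ± 0.13 in leucogen against model on the log2 scale. Atp5h, the d subunit of the stalk, was at -0.20 ± 0.17 and 0.16 ± 0.17. Atp5l, the g subunit of the membrane part, was at 3.52, 4.11 and 3.17 CPM in model, 2.15, 2.84 and 2.5 in QJSB and 5.64, 3.92 and 5.38 in leucogen, so the drug groups did not overlap. Leucogen was higher than QJSB by 1.02 ± 0.28 (adjusted p = 0.028), a call that was lost with the GC relation removed and without leucogen 1, leucogen 3 or QJSB 3. Ndufab1, the mitochondrial acyl carrier protein, was at 22.5, 22.9 and 19.2 CPM in normal, 20.4, 22.9 and 18.8 in model, 18.6, 13.2 and 17.7 in QJSB and 23.5, 23.6 and 24.3 in leucogen. QJSB libraries were all lower than leucogen libraries. Ndufab1 was higher in leucogen than in QJSB by 0.55 ± 0.18 (adjusted p = 0.047), a call lost without any 1 of the leucogen libraries, QJSB 2 or QJSB 3.

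Several subunits have a common isoform and one restricted to muscle, testis or lung, and the marrow libraries held mostly the common one. Cox4i1 made up 98.5% to 100% of the FPKM of Cox4i1 and Cox4i2, Cox7a2 made up 97.1% to 100% of that of Cox7a2 and Cox7a1, and Cox8a made up 99.4% to 100% of that of Cox8a and Cox8b. Cox6a2, the heart and muscle form of subunit VIa, held more: Cox6a1 made up 82.9% to 88% of their sum in normal and 92.1% to 98.5% in leucogen. Cox6a2 had 22, 19 and 28 counts in normal, 11, 14 and 34 in model, 31, 5 and 4 in QJSB and 5, 1 and 2 in leucogen. The leucogen libraries were at or near the limit of detection, and leucogen was called lower than model (-2.40 ± 0.68, adjusted p = 0.031) and normal (-2.81 ± 0.53, adjusted p = 0.0015). The call against model was lost without any 1 of the leucogen libraries. Cox6a2 overlaps Itgad on the other strand by 70 bases. Summed CPM of 5 skeletal muscle genes ran from 7.32 to 171 in normal, 13.2 to 86.3 in model, 14.8 to 79.6 in QJSB and 9.14 to 65.7 in leucogen, and 0 of the 5 differed in any comparison. The testis forms Cox7b2 and Cox8c had 0 counts in all libraries. Cox6b2, another restricted form, was detected in every library, at means of 4.89 CPM in normal, 3.36 in model, 5.47 in QJSB and 4.45 in leucogen. Cox6b1 made up 97.7% to 99.4% of the FPKM of Cox6b1 and Cox6b2.

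**Figure D4:**
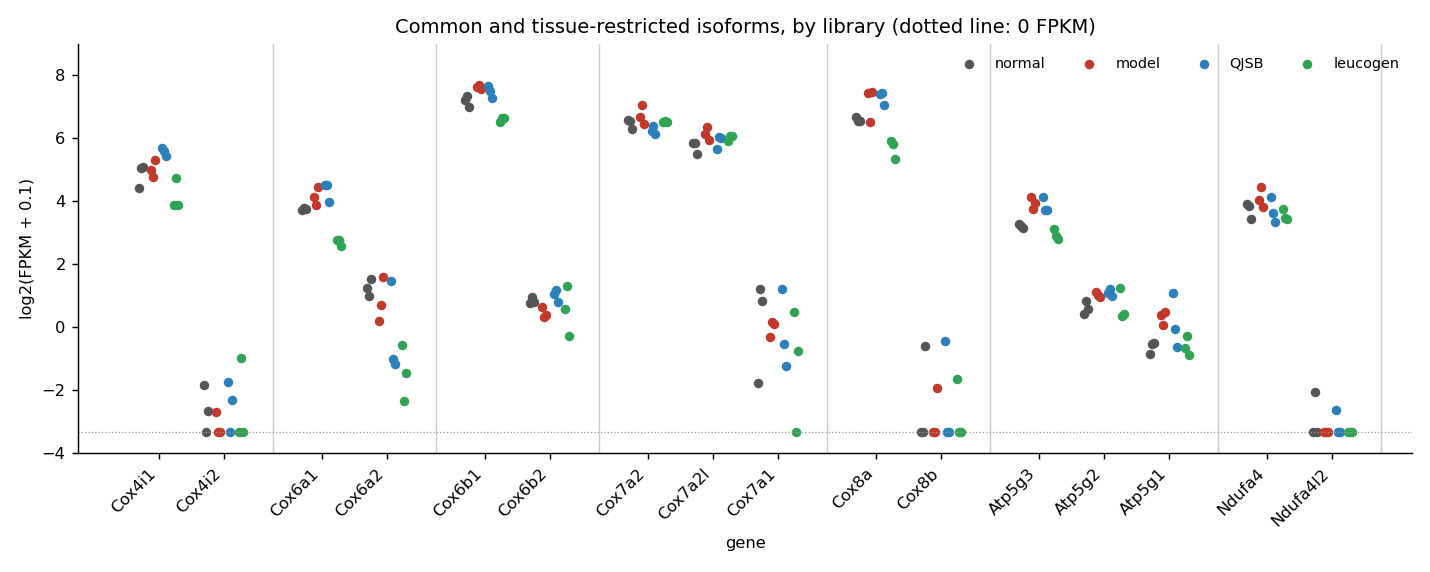
Levels of common and tissue-restricted isoforms as log2(FPKM + 0.1) in each library, coloured by group, with a dotted line at 0 FPKM. Cox4i1, Cox6b1, Cox7a2, Cox8a and Ndufa4 lie far above their restricted forms in every library. Leucogen libraries (green) are the lowest of each set for Cox6a1, Cox6b1 and Cox8a.

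The c-ring of complex V, the rotor in the membrane, is made from 3 genes that encode the same mature protein. Atp5g3 made up 75.5% to 85.2% of their FPKM, Atp5g2 9.29% to 19.8% and Atp5g1 3.49% to 9.38%. Atp5g3 was at 29.3, 27.8 and 26.2 CPM in normal, 45.9, 37.4 and 44.3 in model, 47.6, 41.8 and 39.7 in QJSB and 25.6, 23.4 and 21.5 in leucogen. Its normal and leucogen libraries all lay below its model and QJSB libraries. Atp5g1 was at 4.57, 5.9 and 6.07 CPM in normal, 10.5, 8.8 and 12.5 in model, 18.4, 9.03 and 5.48 in QJSB and 5.32, 7.61 and 4.7 in leucogen. The QJSB libraries ran from within the normal range (QJSB 3) to above every other library (QJSB 1). In model against normal Atp5g3 rose by 0.62 ± 0.14 (adjusted p = 0.0077) and Atp5g1 by 0.94 ± 0.22 (adjusted p = 0.0088) on the log2 scale, and Atp5g2 was at 0.31 ± 0.25. In leucogen against model Atp5g3 changed by -0.85 ± 0.15 (adjusted p = 0.0063) and Atp5g1 by -0.84 ± 0.25 (adjusted p = 0.037), and Atp5g2 was at -0.15 ± 0.31. The Atp5g1 call with leucogen was lost under several other settings and without leucogen 1, leucogen 3, model 1 or model 3.

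Other genes of energy metabolism were read as lists, beside the 19.7% of all genes higher and 21.9% lower in model against normal, and the 13.8% higher and 13.3% lower in leucogen against model. Of 13 genes of the tricarboxylic acid cycle, 10 rose and 0 fell in model against normal (median 0.55), and 10 fell and 0 rose in leucogen against model (median -0.81). Citrate synthase (Cs) changed by 0.74 and -1.10 on the log2 scale in these comparisons. Of 10 genes of complex II and the electron carriers, 6 rose in model (median 0.51) and 7 fell with leucogen (median -0.73), among them all 4 subunits of succinate dehydrogenase: Sdha at -0.72, Sdhb at -0.82, Sdhc at -1.08 and Sdhd at -0.99. Of 8 genes of ATP export and ATP synthase regulation, 5 rose and 1 fell in model (median 0.65). With leucogen 4 of the 8 fell and 0 rose (median -0.49). The nucleotide carriers of this list that export ATP, Slc25a4 (-1.29) and Slc25a5 (-1.40), fell with leucogen. Cytochrome c (Cycs) was at 0.33 and 0.42 and passed neither test. Of 34 assembly factors outside the name rule, 13 rose and 2, Cox11 and Cox17, fell in model (median 0.48), and 7 fell with leucogen (median -0.38).

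The 13 subunits encoded by mitochondrial DNA are given beside the nuclear ones. In model against normal mt-Atp6 (0.56) and mt-Co3 (0.67) rose on the log2 scale and 0 fell (median 0.33). In leucogen against model mt-Nd3 fell (-0.67), mt-Nd6 rose (1.01) and the median was -0.13, where the nuclear members were at -0.60. Their summed CPM ran from 15231 to 17065 in normal, 18087 to 25745 in model, 17875 to 20853 in QJSB and 16887 to 20782 in leucogen, so that model and leucogen overlapped. In leucogen against normal 6 of the 13 rose and 0 fell (median 0.35), where 25.7% of all genes were higher and 26.6% lower. The difference between the nuclear and the mitochondrial lists was not itself tested.

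Of 14 regulators of mitochondrial gene expression and biogenesis, 13 were tested, of which 2 rose and 3 fell in model against normal (median -0.09), close to the shares of all genes. The risers were Ppargc1b, a coactivator (0.96), and Tfb2m, a mitochondrial transcription factor (0.53). The transcription factor Nrf1 fell in model (-0.72) and was higher in leucogen than in model (0.57). Gabpb1 and Gabpb2, partners of the ETS factor Gabpa, fell in model by 0.74 and 0.36 on the log2 scale. Polrmt, the mitochondrial RNA polymerase, changed by -1.27 with leucogen, and Tfb1m by -0.83.

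The fold changes of the drug comparisons moved with base composition. The GC content of the exons ran from 40.2% to 60.9% over the 82 members, with a median of 50.9% against 49.2% for all genes. Across the 81 members, the log2 fold change of leucogen against model correlated with GC content at r = -0.44 (Spearman rho = -0.46), and across 14117 genes at r = -0.32. For leucogen against QJSB the values were r = -0.62 across members and r = -0.50 across 14200 genes. For QJSB against model they were r = 0.52 across 82 members and r = 0.31 across all genes, of the opposite sign. For model against normal they were r = 0.07 and r = 0.06. Genes are not independent and share their libraries, so these are descriptions. The 4 members higher in leucogen than in QJSB were Atp5l (41.0% GC), Ndufs4 (44.1%), Ndufab1 (45%) and Cox6c (47.7%), all under the median. Cox5a (44.4%) and Atp5b (47.8%) were called lower at like contents, and Ndufb6 (49.7%) at a somewhat higher one. Cox8a (58.6%), Atp5d (59.3%) and Cox6a1 (60.9%), also called lower, lay above the median, where the relation puts lower values. With the relation removed from each library, Atp5b was at -1.32 ± 0.20 and Ndufb6 at -1.58 ± 0.20 in leucogen against model on the log2 scale.

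**Figure D5:**
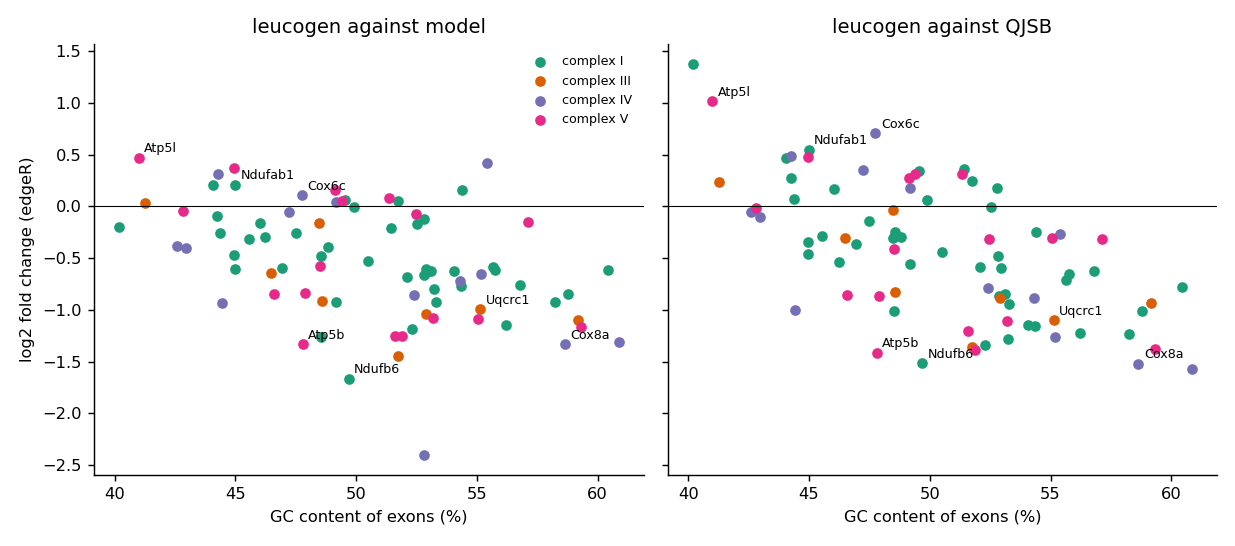
Log2 fold change of each member against the GC content of its exons (%), coloured by complex, for leucogen against model (left) and against QJSB (right). Points fall from left to right in both panels, from Atp5l at 41.0% GC to Cox8a at 58.6% GC, and Ndufb6 and Atp5b lie below the other members of like GC content.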

How the data were processed

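After depletion of ribosomal RNA, strand-specific libraries were sequenced on an Illumina HiSeq, and the authors cleaned the reads with Seqtk and aligned them with Hisat2 to GRCm38.p4 (mm10). The deposited table holds raw read counts and FPKM values per gene, both made by the authors. The counting program and its strand setting are not given in the sources used here. The study's lists of 300 genes for each of 3 comparisons were used only to check the reading of the column headings. The level listed for each gene matched the columns read within 1% for 300 of 300 genes in each comparison. The headings of the table are Blank, Model, Positive and Stilbene. Blank was read as normal and Positive as leucogen by the meaning of the words, and Stilbene as QJSB by elimination. Every QJSB and leucogen value rests on this reading. In the check, the QJSB list matched the columns read as QJSB and model for 300 genes, and those read as leucogen and model for 5. The leucogen list matched the leucogen and model columns for 300 genes, and the QJSB and model columns for 0.

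Counts were tested with edgeR 4.0.16 in R 4.3.3, by the quasi-likelihood test with TMM scaling and edgeR's filter on low counts, in a fit of the 2 groups of each comparison. P-values were adjusted by Benjamini-Hochberg over all genes tested, at a threshold of 0.05. CPM are counts scaled to a common library size after TMM. FPKM was used for levels between genes. The fits were tested on simulated counts. Alternatives were DESeq2 1.42.0, limma 3.58.1 on log2(FPKM + 0.1) and log2(FPKM + 1), other filters and scalings, all 12 libraries in one fit, a replicate block, removal of a GC or length trend, and each library left out. The GC alternatives were chosen after seeing the data. Nothing in the labels says that replicate numbers pair the animals. For QJSB against model the deviations of same-numbered libraries correlated at 0.42, 0.12 and 0.10. All comparisons were also read with the block.

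The members and the gene lists were chosen with earlier results of these data known. Values in every library are given for the member of each complex with the highest FPKM, the largest rises and falls of each comparison among called members with a mean of at least 50 normalized counts, isoform sets and F1 genes, with ranges or shares for some of these. Other genes were named after their values were seen. With 3 libraries a group, an exact permutation test of a single value cannot go below p = 0.1, so none was used. Some items are not reported here.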

Additional observations from a re-analysis of the deposited data

Results flagged for a closer look

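The drug groups were set against each other by a test of leucogen against QJSB (edgeR, adjusted over all genes), which tests whether their effects against the same model libraries differ. Of 32 named members 27 were tested and 17 differed, 14 lower and 3 higher with leucogen. On the log2 scale the lower members were Cox6a1 (-1.57), Cox8a (-1.52), Ndufb6 (-1.52), Atp5b (-1.41), Atp5a1 (-1.38), Atp5d (-1.38), Uqcrq (-1.36), Ndufv3 (-1.28), Cox4i1 (-1.26), Ndufa8 (-1.15), Uqcrc1 (-1.10), Atp5g3 (-0.85), Cox6b1 (-0.79) and Ndufb9 (-0.65). The higher members were Ndufab1 (0.55), Cox6c (0.70) and Atp5l (1.02). These 3, with Cox6a1, Cox8a and Ndufb6, were named as the largest called changes of this same comparison. The count of 17 was thus partly fixed by the choice of names. Of all 81 members tested, 35 were lower and 4 higher. Of all 14266 genes, 15.5% were lower and 13.8% higher. With the GC relation removed, the calls of Atp5l, Ndufab1, Ndufb9 and Ndufv3 were lost. Groups of 3 libraries are too small for a test of outlying samples.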

How the results depend on the processing

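No named member changed direction where it was called. Of the called values, 98 fell short of the threshold and 1191 passed under the alternatives run, and 67 values that had not passed did so. Under scaling by totals alone, the members had a median log2 fold change of 0.49 in model against normal, -0.78 in leucogen against model and -0.55 in leucogen against QJSB. With limma on log2(FPKM + 0.1) it was -0.75 in leucogen against model. With the GC trend removed the median was -0.43 in leucogen against model and 0.19 in QJSB against normal, and 23 members were called in leucogen against QJSB. With the GC trend removed and the replicate block the medians were -0.44 in leucogen against model, 0.19 in QJSB against normal and -0.35 in leucogen against QJSB, and the counts 24, 13 and 23. With the length trend removed and the block, 23 members were called in leucogen against model. DESeq2 called 1 member in QJSB against model. The share of all genes called is not given beside these counts or those that follow, so a change in count may not be particular to the members. The cause of these shifts was not tested.

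With the replicate block alone, 21 members were called in model against normal, 25 in leucogen against model, 0 in QJSB against model, 26 in leucogen against normal, 19 in QJSB against normal and 37 in leucogen against QJSB. Named calls lost with it were Atp5g1 and Cox6a2 in leucogen against model, Cox6a1 and Ndufb6 in QJSB against normal and Cox7a2l in leucogen against normal. By the labels, same-numbered libraries share only a number in every comparison. In QJSB against model, QJSB 1 and model 1 were each other's best match (0.42), and the other same-numbered libraries were not. Both also stood apart from their groups on the late neutrophil and stroma lists. In leucogen against QJSB every library correlated best with its own number (0.18, 0.14 and 0.07), as a hint from the data only.

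Leaving out 1 library at a time, the count ran from 11 (without normal 2) to 28 in model against normal, from 20 to 36 in leucogen against model (20 without leucogen 1 or leucogen 3), from 0 to 0 in QJSB against model, from 24 to 31 in leucogen against normal, from 16 to 28 in QJSB against normal (16 without normal 2 or normal 3) and from 25 (without leucogen 3) to 38 in leucogen against QJSB. The medians ran from 0.32 to 0.39, from -0.64 to -0.50, from -0.14 to 0.0078, from -0.20 to -0.08, from 0.20 to 0.36 and from -0.54 to -0.37 in the same order. Members with few counts, such as Cox6a2, and the 6 that did not pass the filter are limited by depth.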

Other observations

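Atp5l2-ps, one of the 4 pseudogene names left out, had 16, 21 and 16 counts in normal, 36, 37 and 28 in model, 29, 24 and 22 in QJSB and 18, 16 and 9 in leucogen. Reads of a pseudogene and its parent gene may be shared, and whether the counting split them is not given in the sources used here.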
